A study of Mus musculus with 16 samples.

Results

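In all, 17 genes were expressed in control colony-forming unit erythroid cells (CFU-E) and low in libraries labelled as Kit-low *Mettl3* knockout CFU-E, called Kit-lo here. Most were still detected there, so low does not mean absent. They were selected on measured values. In the RNA-seq table, with counts scaled to 1000000 per library (CPM), a gene had to reach 3 CPM in each of 3 control libraries and stay under 1 CPM in each of 3 Kit-lo libraries. Of 15386 genes in the table, 8952 reached 3 CPM in every control library, and 19 of these also met the second condition. *Cd69* and *Spry4* were left out by name, because gene families with those prefixes were set aside, which left 17 genes, of which 16 are described one by one. The difference between control and Kit-lo is therefore what the genes were chosen for, and it is described here without a test.

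The cells came from the bone marrow of adult C57BL/6 mice of both sexes. CFU-E were sorted as live, lineage-negative cells without CD16/32, CD41, CD34 or Sca1 and with Kit and CD71. The *Mettl3*-deficient animals were *Mettl3* fl/fl EpoR Cre/-, in which the *EpoR-tdTomato-Cre* allele recombines in erythroid cells and in erythroblastic island macrophages, and in part in hematopoietic stem cells. The exact genotype of the control mice is not given in the sources used here. CFU-E Kit-lo are the subset of mutant CFU-E with very low surface Kit, so genotype and Kit gate change together between the groups and cannot be told apart. Separate libraries of control CFU-E were made for N6-methyladenosine (m6A) profiling, 2 immunoprecipitated (IP) and 2 input. Whether their cells came from the same mice or sorts as those for RNA-seq is not stated. Libraries of proerythroblasts are not analysed here. Nothing states whether the replicates came from separate mice, so p-values measure the spread between these libraries, which may be technical.

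CFU-E are erythropoietin-dependent progenitors that still carry Kit, the receptor for stem cell factor, which is lost during later maturation. As the cells mature, a broad progenitor program gives way to genes for hemoglobin and the red cell membrane. Mettl3 is the catalytic subunit of the methyltransferase that places m6A on messenger RNA, a mark read by proteins that affect transcript splicing, translation and decay.

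The RNA-seq libraries held 17429262 to 21329242 counts. Control levels of *Mettl3* itself were 113, 124 and 125 CPM, and Kit-lo levels 120, 130 and 107 CPM. The groups overlapped, so *Mettl3* did not check the genotype in the labels, and each direction below rests on the labels. For erythroid cells of the mutant mice, the paper reports loss of *Mettl3* mRNA by qRT-PCR and of the protein, and less m6A. Counts per gene cannot show whether single exons were lost. *Kit*, the gene of the sorting marker, averaged 587 ± 50.1 CPM (SD, n = 3) in control and 56.3 ± 13.5 CPM (SD, n = 3) in Kit-lo, and was lower in each library labelled Kit-lo than in any control library, the direction of the gate. All 20 genes of a late erythroid list were in the table. They summed to 14000 to 15000 CPM in control and 15900 to 17600 CPM in Kit-lo. Of these, 12 were called higher and 0 lower by edgeR, at a fold of at least 1.5 and adjusted p under 0.05. Their median log2 fold change was 0.76. Over all genes tested, 12.1% were called higher and 9.83% lower, with a median of 0.01. The largest part of the sum was *Car2*, at 8860 to 9460 CPM in control and 6810 to 8070 CPM in Kit-lo. *Slc4a1* was at 0.938 to 3.03 CPM in control and 203 to 349 CPM in Kit-lo. The part of erythroid maturation in the values below was not tested. The list with the clearest shift among markers of other cells was that of mast cells and basophils, with 8 of 13 genes in the table and summed levels of 166 to 192 CPM in control and 51.2 to 64.6 CPM in Kit-lo. Of 4 genes tested, 2 were called lower, *Il1rl1*, which made up most of the sum, and *Gata2*, also on an early progenitor list. *Gata2* was at 31.7 to 35.5 CPM in control and 1.98 to 2.9 CPM in Kit-lo. The mast cell protease *Cpa3* stood at 0.44 to 0.703 CPM in control and at 0 CPM in each Kit-lo library. *Hdc* overlapped, at 0.516 to 1.66 and 0.35 to 0.963 CPM, and so did *Prss34*, at 0 to 2.31 and 0 to 2.02 CPM. Granulocyte markers, 10 of 14 in the table, summed to 24.8 to 38.4 CPM in control and 16.7 to 24.6 CPM in Kit-lo. Eosinophil markers, 4 of 6 in the table, summed to 0.609 to 14.5 CPM and 2.1 to 3.73 CPM. Summed levels overlapped between the groups for megakaryocyte markers (10 of 14 in the table, 123 to 144 and 113 to 170 CPM), for monocyte and macrophage markers (12 of 15, 11.8 to 17.2 and 13.3 to 17.7 CPM) and for B cell markers (8 of 9, 1.83 to 4.02 and 2.73 to 8.36 CPM). They were higher in Kit-lo for T and NK cell markers (7 of 11, 11.1 to 13.1 and 14.7 to 22.3 CPM). *Thy1* made up most of this sum, at 8.2 to 9.52 CPM in control and 10.8 to 19.6 CPM in Kit-lo. None of the 4 genes tested on that list was called. Sums were also higher for endothelial and stromal markers (7 of 11, 317 to 325 and 364 to 399 CPM), nearly all *Eng*. Single markers differed within these lists. The T cell gene *Cd3e* reached at most 0.574 CPM in any library. *Cd3d* went the other way from the sum, at 1.84 to 2.77 CPM in control and 1.05 to 1.45 CPM in Kit-lo. The macrophage gene *Adgre1* reached at most 0.115 CPM, while *Cd68* was at 3.27 to 6.1 CPM over the libraries. *Irf8*, a factor of the monocyte lineage, was at 0 to 0.165 CPM in control and 0.588 to 1.66 CPM in Kit-lo. *Irf8* was called higher (edgeR adjusted p = 0.0085). *C1qa*, on the same list, was at 1.08 to 1.54 CPM in control and 0.2 to 0.588 CPM in Kit-lo. *C1qa* was called lower (edgeR adjusted p = 0.031). The part of such cells in the values below was not tested. In bulk libraries, fewer cells that express a gene and less RNA per cell cannot be told apart.

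The 17 genes together made up 101, 120 and 112 CPM in the control libraries and 5.51, 4.9 and 7.2 CPM in the Kit-lo libraries. All 17 are annotated as protein coding, and they lie on 10 chromosomes in the GENCODE vM21 annotation of GRCm38. They were low in control as well. Their control means ran from 3.47 to 16.2 CPM, a range that holds 2170 of the 8952 expressed genes. Their annotated exons covered 1392 to 12009 bases with a median of 3262, and the median was 4449 over the 11973 genes that were both tested and annotated. The median number of separate exon blocks was 4 against 9 over those genes.

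**Figure D1:**
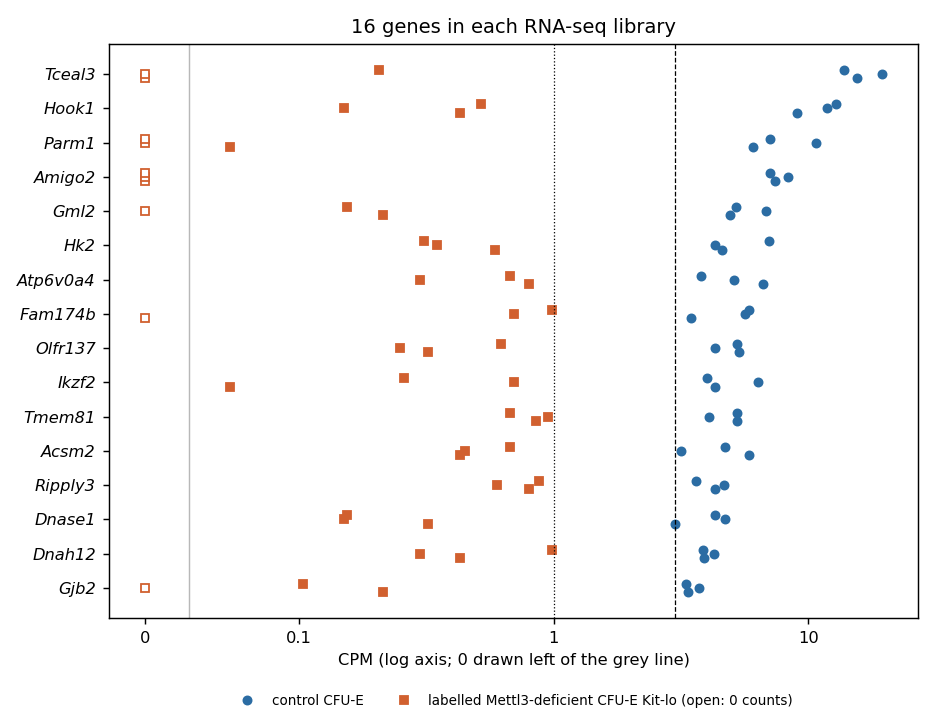
Each point is the level of 1 gene in 1 RNA-seq library, in CPM on a log axis, with genes ordered by their control mean. Circles are the 3 control libraries, squares the 3 Kit-lo libraries (open at 0 counts), the dashed line 3 CPM and the dotted line 1 CPM. The gap between the lines is set by the selection, while *Amigo2* stands out with 0 counts in every Kit-lo library.

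The largest group by role was made of surface and membrane proteins. *Amigo2* (ENSMUSG00000048218.6, chr15:97244125-97247287, minus strand) encodes a leucine-rich repeat adhesion protein. Its control values of 7.41, 8.32 and 7.1 CPM lay close together. No Kit-lo library had a single count. Against a floor of 3 counts per library, which corresponds to at most 0.16 CPM, Kit-lo was at least 47.4-fold lower than the control mean of 7.61 ± 0.633 CPM (SD, n = 3). The opposite-strand gene *Pced1b* shares 58 bases of *Amigo2* exon and was not low in Kit-lo, with means of 3.87 CPM in control and 8.04 CPM in Kit-lo.

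*Parm1* (ENSMUSG00000034981.9, chr5:91517615-91626894, plus strand) encodes a mucin-like transmembrane protein. It was at 6.09, 10.7 and 7.1 CPM in control, and a single count in 1 Kit-lo library (0.0535 CPM) was all that the Kit-lo group held. With 446 counts in control and 1 in Kit-lo, the ratio of the pooled levels was 454, with an exact 95% interval for counting error from 81.1 to 18000. Intervals of this kind, here and below, cover counting error only and not the spread between libraries. They rest on the counts used for the selection, so they do not test the difference.

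*Gml2* (ENSMUSG00000068600.10, chr15:74819071-74834871, plus strand) belongs to the Ly6 family of small, often membrane-anchored proteins. It was at 4.92, 6.83 and 5.18 CPM in control and at 0.214, 0 and 0.155 CPM in Kit-lo. The pooled ratio was 46.3 (22.2 to 116). Its neighbor *Gml* and *Cyp11b1* share sequence with it, and 36.9% of its 31-base words also occur in transcripts of other genes, so how its reads were assigned is uncertain.

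*Fam174b* (ENSMUSG00000078670.3, chr7:73740302-73776919, plus strand), which encodes a small membrane protein, had the largest SD in Kit-lo, 0.506 CPM. It was at 3.47, 5.62 and 5.84 CPM in control and at 0, 0.7 and 0.984 CPM in Kit-lo. The pooled ratio was 8.58 (5.97 to 12.7). The lowest control and the highest Kit-lo library differed by 3.53-fold, the narrowest gap of the 17 genes. Of its 31-base words, 15.6% are shared with other transcripts, mostly with an opposite-strand transcript, and the counting is not stated to use strand.

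*Gjb2* (ENSMUSG00000046352.7, chr14:57098600-57104702, minus strand) encodes connexin 26, a subunit of gap junction channels. It was at 3.38, 3.73 and 3.3 CPM in control and at 0.214, 0 and 0.104 CPM in Kit-lo. The 197 control and 6 Kit-lo counts gave a pooled ratio of 33.5 (15.1 to 92.3). The spread among its control libraries was small, with an SD of 0.228 CPM.

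*Tmem81* (ENSMUSG00000048174.2, chr1:132506230-132508639, plus strand) encodes a transmembrane protein. It was at 5.25, 4.07 and 5.23 CPM in control and at 0.856, 0.951 and 0.673 CPM in Kit-lo, a pooled ratio of 5.9 (4.33 to 8.19). *Olfr137* (ENSMUSG00000054940.6, chr17:38303527-38307570, minus strand) is annotated as an odorant receptor, a class of G-protein-coupled receptors used in the nose. It was at 5.34, 4.3 and 5.23 CPM in control and at 0.321, 0.25 and 0.621 CPM in Kit-lo, a pooled ratio of 12.6 (8.22 to 20.2).

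Of the genes linked to dynein motors, *Hook1* (ENSMUSG00000028572.13, chr4:95967240-96025413, plus strand) encodes an adaptor that links membrane cargo to the dynein motor. It was at 9.05, 11.8 and 12.9 CPM in control and at 0.428, 0.15 and 0.518 CPM in Kit-lo, a pooled ratio of 30.7 (19.9 to 49.9). *Dnah12* (ENSMUSG00000021879.13, chr14:26693274-26891703, plus strand) encodes a heavy chain of the dynein of cilia and had the largest exonic length, 12009 bases in 74 blocks. Its control values of 3.89, 4.25 and 3.85 CPM had an SD of 0.216 CPM, and its Kit-lo values were 0.428, 0.3 and 0.984 CPM. Per kilobase it was the lowest in control, 0.333 CPM per kb.

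Enzymes and a pump subunit formed a further group. *Hk2* (ENSMUSG00000000628.10, chr6:82725025-82774454, minus strand) encodes hexokinase 2, which phosphorylates glucose in the entry step of glycolysis. It was at 4.59, 4.3 and 6.99 CPM in control and at 0.588, 0.35 and 0.311 CPM in Kit-lo, a pooled ratio of 12.7 (8.4 to 20.2). *Atp6v0a4* (ENSMUSG00000038600.12, chr6:38048483-38124586, minus strand), a membrane subunit of the vacuolar proton pump known from kidney, was at 6.66, 5.11 and 3.8 CPM in control and at 0.802, 0.3 and 0.673 CPM in Kit-lo. Neither gene reached 0 in any library, and the gap between the groups is set by the selection.

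*Acsm2* (ENSMUSG00000030945.17, chr7:119554340-119600690, plus strand) encodes a mitochondrial medium-chain acyl-CoA synthetase. It was at 5.86, 3.16 and 4.73 CPM in control and at 0.428, 0.45 and 0.673 CPM in Kit-lo, a pooled ratio of 9.03 (6.18 to 13.7). *Dnase1* (ENSMUSG00000005980.15, chr16:4036942-4040024, plus strand) encodes a secreted endonuclease. It was at 3.0, 4.7 and 4.29 CPM in control and at 0.321, 0.15 and 0.155 CPM in Kit-lo, a pooled ratio of 19 (10.7 to 37.4). Of its exonic bases, 504 (16.3%) overlap an annotated antisense transcript on the other strand. *Dnase1* also shares 54 exonic bases with *Trap1* on that strand, whose means were 663 CPM in control and 614 CPM in Kit-lo.

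Nuclear factors made up the rest. *Tceal3* (ENSMUSG00000044550.11, chrX:136590842-136668378, plus strand), a member of the transcription elongation factor A-like family, had a control level of 4.57 CPM per kb of exon. It was at 15.5, 19.4 and 13.8 CPM in control and at 0, 0 and 0.207 CPM in Kit-lo. All 4 of its Kit-lo counts came from 1 library, and the pooled ratio was 234 (91.0 to 860). Of its 31-base words, 17% are shared with *Tceal6* or *Tceal5*, so reads could be split among these copies.

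*Ikzf2* (ENSMUSG00000025997.13, chr1:69531214-69687245, minus strand) encodes Helios, a zinc finger factor of the Ikaros family found in early hematopoietic and T cells. It was at 4.31, 6.37 and 4.02 CPM in control and at 0.0535, 0.7 and 0.259 CPM in Kit-lo, a pooled ratio of 14.1 (8.93 to 23.4). *Ripply3* (ENSMUSG00000022941.8, chr16:94328420-94336935, plus strand), named after its values were seen, encodes a co-repressor of T-box factors. It was at 4.31, 4.65 and 3.63 CPM in control and at 0.802, 0.6 and 0.88 CPM in Kit-lo, and its pooled ratio of 5.53 (4.0 to 7.82) was the smallest of the 15 genes with Kit-lo counts.

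The genes nearest to the limits differed little on either side. Just inside the control limit, the lowest control libraries of *Dnase1*, *Acsm2* and *Gjb2* were at 3.0, 3.16 and 3.3 CPM. Just outside it, those of *Mc5r*, *Rai14* and *Scin* were at 2.87, 2.87 and 2.86 CPM. Just inside the Kit-lo limit, the highest Kit-lo libraries of *Fam174b*, *Dnah12* and *Tmem81* were at 0.984, 0.984 and 0.951 CPM. Just outside, those of *Armcx2*, *Paqr8* and *Ltbp1* were at 1.04, 1.07 and 1.14 CPM. Membership at the edge thus turned on a few counts.

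**Figure D2:**
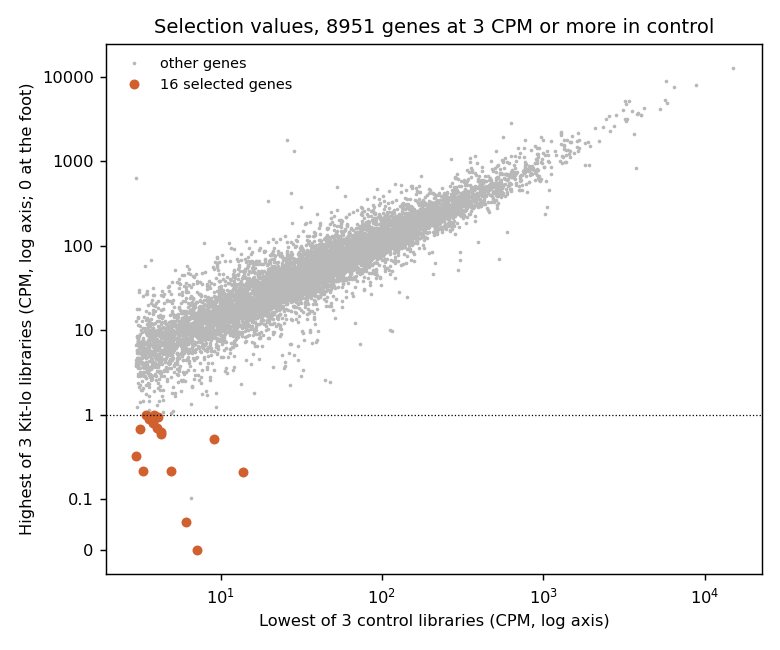
Each point is 1 of 8951 genes at 3 CPM or more in every control library, with its lowest control library on the horizontal axis and its highest Kit-lo library on the vertical axis, both in CPM on log axes. The 16 marked genes lie below the dotted line at 1 CPM, and all have a lowest control value of 13.8 CPM or less. The 2 grey points below the line are *Cd69* and *Spry4*.

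Promoter sequences, 250 bases before to 50 bases after the annotated start, were taken from RefSeq (GRCm38.p6) and were given for 12 of the 17 genes, with 16 starts in all. In all, 6 are shown, the 3 that hold the erythroid GATA motif AGATAA on either strand and, for contrast, those of 3 other members. Capitals mark the motif as read on the printed strand.
*Tmem81* promoter, chr1:132505980-132506279, plus strand: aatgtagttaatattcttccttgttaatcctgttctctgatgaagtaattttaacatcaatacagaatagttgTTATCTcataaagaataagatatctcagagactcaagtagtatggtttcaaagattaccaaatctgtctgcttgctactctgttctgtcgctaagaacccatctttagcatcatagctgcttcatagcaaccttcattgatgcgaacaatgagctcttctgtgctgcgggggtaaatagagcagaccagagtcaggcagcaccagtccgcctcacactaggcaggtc
*Acsm2* promoter, chr7:119554090-119554389, plus strand: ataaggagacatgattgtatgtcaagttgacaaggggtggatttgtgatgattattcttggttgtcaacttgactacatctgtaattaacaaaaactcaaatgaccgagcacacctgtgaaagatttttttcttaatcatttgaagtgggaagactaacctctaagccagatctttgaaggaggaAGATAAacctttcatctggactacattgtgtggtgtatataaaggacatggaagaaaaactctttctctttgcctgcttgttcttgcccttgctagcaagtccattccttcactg
*Dnah12* promoter, chr14:26691304-26691603, plus strand: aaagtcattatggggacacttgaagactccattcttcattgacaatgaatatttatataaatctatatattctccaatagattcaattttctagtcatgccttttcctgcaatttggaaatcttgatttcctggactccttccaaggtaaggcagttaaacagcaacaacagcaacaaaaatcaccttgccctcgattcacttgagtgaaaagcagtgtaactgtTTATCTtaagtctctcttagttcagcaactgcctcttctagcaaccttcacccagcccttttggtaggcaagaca
*Hook1* promoter, chr4:95967129-95967428, plus strand: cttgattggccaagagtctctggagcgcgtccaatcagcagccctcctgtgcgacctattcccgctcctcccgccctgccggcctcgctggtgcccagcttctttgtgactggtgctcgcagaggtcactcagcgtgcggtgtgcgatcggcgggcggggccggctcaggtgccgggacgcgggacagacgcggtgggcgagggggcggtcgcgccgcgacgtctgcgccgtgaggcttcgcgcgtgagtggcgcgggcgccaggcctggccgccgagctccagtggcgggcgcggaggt
*Parm1* promoter, chr5:91517450-91517749, plus strand: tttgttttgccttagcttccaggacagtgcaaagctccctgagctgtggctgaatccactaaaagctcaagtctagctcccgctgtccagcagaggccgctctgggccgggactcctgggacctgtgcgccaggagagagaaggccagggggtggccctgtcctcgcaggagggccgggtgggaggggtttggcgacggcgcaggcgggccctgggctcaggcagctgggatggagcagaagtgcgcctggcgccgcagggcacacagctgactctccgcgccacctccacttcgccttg
*Amigo2* promoter, chr15:97247238-97247537, minus strand: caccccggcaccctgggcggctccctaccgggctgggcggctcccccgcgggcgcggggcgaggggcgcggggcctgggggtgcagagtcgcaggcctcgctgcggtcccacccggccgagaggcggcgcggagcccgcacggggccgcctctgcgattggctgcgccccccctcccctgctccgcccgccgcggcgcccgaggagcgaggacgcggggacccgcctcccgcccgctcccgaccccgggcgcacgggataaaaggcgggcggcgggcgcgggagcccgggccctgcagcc
The motif AGATAA was in 3 of the 16 promoters, and in 11.2% of all 32851 promoters of this length. The *Hook1* and *Amigo2* promoters held 40 and 46 CpG dinucleotides, whereas those of *Tmem81*, *Dnah12* and the start of *Acsm2* shown held 4, 1 and 1. Low numbers also occurred without the motif, with 1 for *Atp6v0a4* and 4 at each start of *Dnase1*. The median was 9.5 over the 16 promoters and 7 over all promoters. Neither the cyclic AMP response element TGACGTCA nor the AP-1 motif TGANTCA occurred in any of the 16, and these are in 1.79% and 7.81% of all promoters. The ETS motif GGAAGT was in 1 of the 16 (23.8% of all), the E-box CACGTG in 4, from 2 genes (7.15% of all), and the TATA box TATAAA in 4, from 3 genes (13.6% of all). All motifs were sought on both strands, and starts of 1 gene can overlap. These are matches of letters only.

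The input libraries of the m6A experiment gave a separate view of the genes in control CFU-E, since they took no part in the selection. All 17 genes were in that table. Of the 17, 6 (35.3%) reached 3 CPM in both input libraries, among them *Tceal3*, *Parm1*, *Amigo2*, *Gml2* and *Fam174b*. Of all 8952 genes expressed in control RNA-seq, 84.7% did so, and of the 2170 genes within the control range of the 17, 60.7% did. At 1 CPM the counts were 10 of 17 (58.8%) against 84.2% of those 2170. Both kinds of library started from control CFU-E, but they were made by different protocols, and the part of the protocol in this gap was not tested.

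*Tceal3* was higher in the inputs, at 39.5 and 38.6 CPM, than in control RNA-seq, and so was *Gml2*, at 10.1 and 13.5 CPM. *Parm1* was at 10.1 and 9.58 CPM, *Amigo2* at 5.31 and 3.24 CPM, and *Fam174b* at 7.73 and 6.08 CPM. Other members were far lower in the inputs than in RNA-seq. *Olfr137* and *Dnase1* had 0 counts in both input libraries, and *Acsm2* was at 0.216 and 0.103 CPM. *Hook1*, with a mean of 11.2 CPM in control RNA-seq, was at 1.3 and 0.824 CPM. *Hk2* was at 1.68 and 2.93 CPM, *Atp6v0a4* at 2.12 and 0.669 CPM, *Tmem81* at 1.9 and 2.01 CPM, and *Ripply3* at 1.81 and 1.85 CPM. *Ikzf2* was at 0.604 and 0.978 CPM, *Dnah12* at 1.04 and 1.34 CPM, and *Gjb2* at 1.34 and 0.309 CPM. The median ratio of input to control RNA-seq was 0.403 for the 17 genes, 0.692 for the genes in their control range that both tables hold, and 0.516 for all expressed genes that both tables hold.

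**Figure D3:**
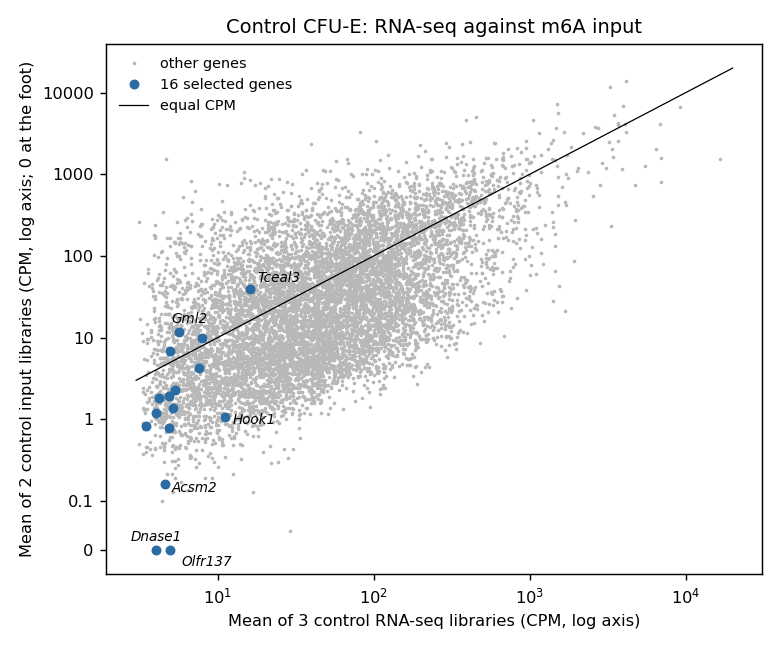
Each point is 1 gene at 3 CPM or more in every control RNA-seq library and present in the m6A table, with its mean over 3 control RNA-seq libraries against its mean over 2 control input libraries, in CPM on log axes; the line marks equal CPM. *Tceal3* and *Gml2* lie above the line, *Hook1* and *Acsm2* far below it, and *Dnase1* and *Olfr137* are at 0 in the inputs.

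Whether the transcripts carried more or less m6A than others was asked by comparing IP with input in control CFU-E, which took no part in the selection. Of the 17 genes, 14 had enough counts to be tested among 11447 genes with edgeR's quasi-likelihood test and Benjamini-Hochberg adjustment. *Olfr137*, *Acsm2* and *Dnase1* did not. None of the 14 was called higher in IP, where 7.9% of all genes tested were called, and 1 of the 14 was called lower, where 7.86% of all were. DESeq2 gave the same 0 and 1, and 3 of the 14 had an unadjusted p under 0.05 with edgeR. The median log2 fold change was -0.21 over the 14 genes and 0.06 over all genes tested.

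*Fam174b* was the gene called lower. It was at 7.73 and 6.08 CPM in the inputs and at 2.58 and 2.29 CPM in the IPs, a log2 fold change of -1.65 with a standard error of 0.33 and an edgeR adjusted p of 0.0079. Both IP libraries lay below both inputs. Without input replicate 1 the log2 fold change was -1.55 and the edgeR adjusted p was 0.072.

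*Ikzf2* had the highest log2 fold change, 1.25 with a standard error of 0.50, from 0.604 and 0.978 CPM in the inputs and 2.56 and 1.64 CPM in the IPs. The IP and input libraries did not overlap, but the edgeR adjusted p was 0.11. *Ripply3* followed at 0.73 with a standard error of 0.38 (edgeR adjusted p = 0.21), from 1.81 and 1.85 CPM to 3.66 and 3.14 CPM. *Parm1* was at -0.72 with a standard error of 0.28 (edgeR adjusted p = 0.11), from 10.1 and 9.58 CPM to 6.46 and 6.82 CPM. The estimate for each of these genes kept its sign in every alternative in which the gene was tested, and none but *Parm1* crossed the threshold in any of them. *Ikzf2* was not tested where both inputs had to reach 1 CPM.

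The other genes lay between -0.53 for *Amigo2* and 0.20 for *Dnah12*, with adjusted p of 0.36 or more. *Tceal3*, the most deeply covered, was at 33.9 and 35.9 CPM in the IPs, a log2 fold change of -0.31 with a standard error of 0.23. The median standard error was 0.41 over the 14 genes and 0.30 over all genes tested, so moderate differences were not detectable for most of them. *Olfr137* and *Dnase1*, at 0 in the inputs, had 6 and 5 counts and 7 and 11 counts in the IPs, too few for a statement.

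**Figure D4:**
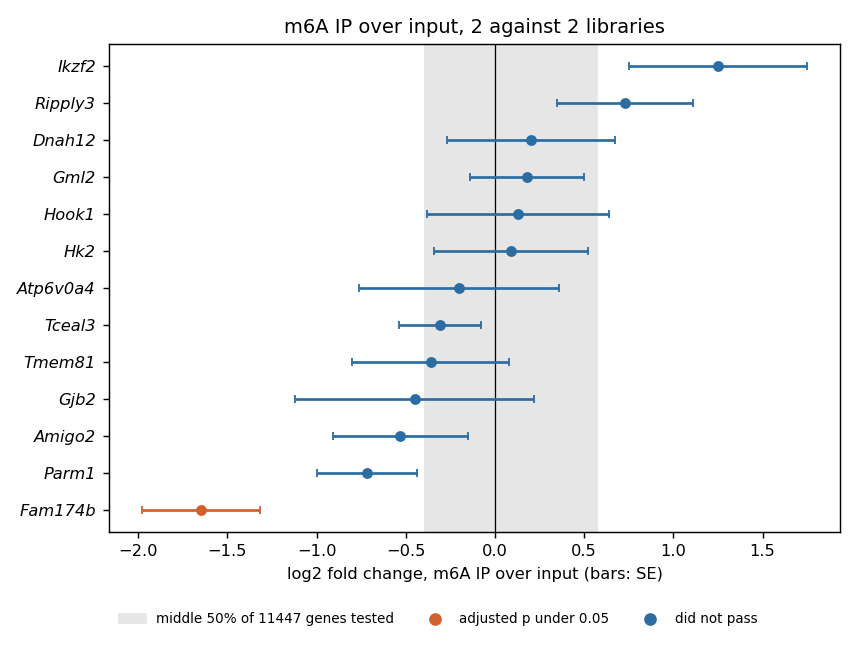
Log2 fold change of m6A IP over input in control CFU-E for 13 of the genes tested, with bars for the standard error (2 IP against 2 input libraries). The grey band, from -0.39 to 0.57, is the middle 50% of the 11447 genes tested; *Fam174b*, at -1.65, is the gene that passed the test, and *Ikzf2*, at 1.25, is the highest.

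Relatives of the selected genes were examined next, over 13 families of the members other than *Olfr137*. In the RNA-seq comparison 1178 of 11979 genes tested (9.83%) were called lower in Kit-lo and 1453 (12.1%) higher, by edgeR at a fold of at least 1.5 and an adjusted p under 0.05. Of 40 relatives in the table, 31 were tested. Of these, 2 were called lower, 6 higher, and 23 were not called.

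Several relatives with the same molecular role were at similar or higher levels in Kit-lo. *Hk1*, the other widespread hexokinase, averaged 597 ± 86.0 CPM in control and 616 ± 135 CPM in Kit-lo (SD, n = 3 each), and was not called. *Ikzf1*, which encodes Ikaros, averaged 619 ± 28.7 and 664 ± 14.7 CPM (SD, n = 3 each) and was not called, while *Ikzf5* rose from 40.3 to 72.7 CPM (log2 fold change 0.79, SE 0.13, edgeR adjusted p = 0.001). *Ikzf4*, which encodes Eos, was at 0.188, 0.459 and 0 CPM in control and at 3.48, 1.5 and 2.8 CPM in Kit-lo, and was called higher (edgeR adjusted p = 0.0077). The group of Ikaros factors thus held 1 gene selected as lower, 2 called higher and 1 not called.

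*Atp6v0a1* and *Tcirg1*, which encode other forms of the subunit made from *Atp6v0a4*, were both called higher. *Atp6v0a1* averaged 56.4 CPM in control and 89.1 CPM in Kit-lo (log2 fold change 0.60, SE 0.11, edgeR adjusted p = 0.0023), and *Tcirg1* 35.1 and 58.8 CPM (0.69, SE 0.16, edgeR adjusted p = 0.0091). A further form, *Atp6v0a2*, averaged 89.4 and 99 CPM and was not called. *Dnase1l1* rose from 9.85 to 18.8 CPM (log2 fold change 0.88, SE 0.17, edgeR adjusted p = 0.0032). *Hook2* and *Hook3* averaged 37.1 and 48.0 CPM in control and 49.2 and 36.4 CPM in Kit-lo, and neither was called.

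In the *Tceal* family, *Tceal1* was called lower, from 5.72, 7.57 and 5.73 CPM in control to 0.856, 1.9 and 0.725 CPM in Kit-lo (log2 fold change -2.49, SE 0.41, edgeR adjusted p = 0.0012). *Tceal8* was called higher, from a mean of 51.0 to 110 CPM (1.06, SE 0.10, edgeR adjusted p = 4.8e-05), and *Tceal9* averaged 113 and 108 CPM and was not called. *Gml*, next to *Gml2* and sharing sequence with it, was called lower at a low level, from 0.951 to 0.105 CPM, with an edgeR adjusted p of 0.012 that became 0.063 without control replicate 3.

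Odorant receptors were a family apart. Of 428 other *Olfr* genes in the table, 151 were tested, and 9 reached 3 CPM in every control library. The median of their means was 0.316 CPM in control and 0.373 CPM in Kit-lo. Of these, *Olfr1309* was called lower, from 12.1, 9.35 and 12 CPM to 0.374, 1.0 and 1.24 CPM (log2 fold change -3.71, SE 0.40, edgeR adjusted p = 8.3e-05), and it missed the Kit-lo limit in 2 libraries. A single other gene was called higher.

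**Figure D5:**
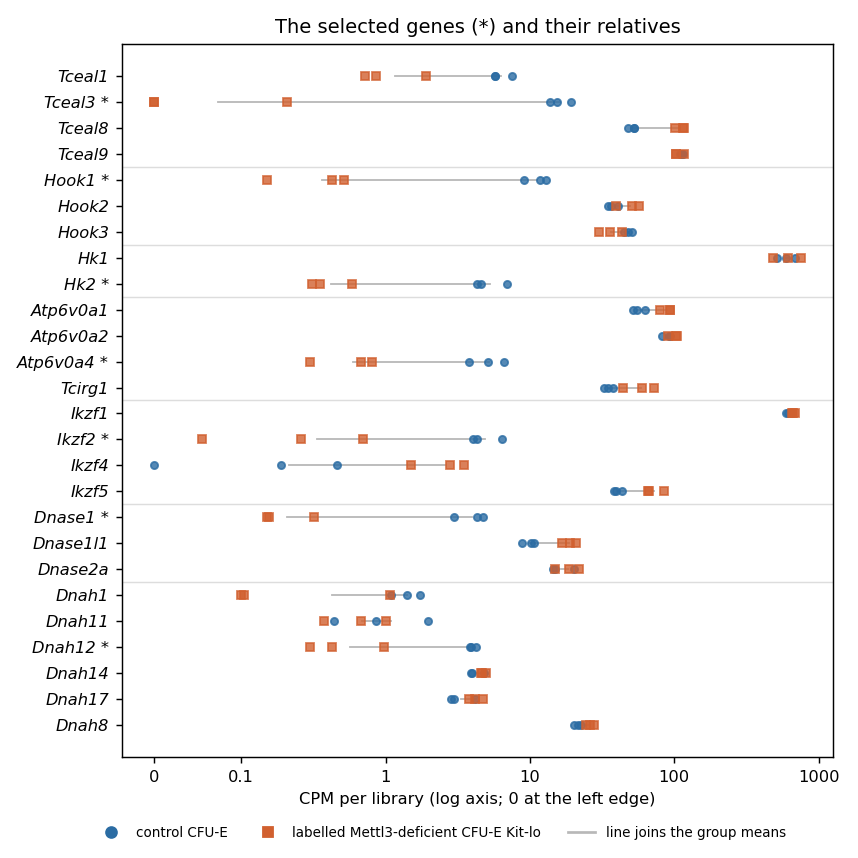
Levels in each of 3 control (circles) and 3 Kit-lo (squares) libraries, in CPM on a log axis, for 7 of the families; the selected gene of each family has an asterisk, grey lines join the group means, and relatives under 1 CPM in both groups are left out. *Hk1* and *Ikzf1* lie between 483 and 753 CPM in both groups, while *Hk2* and *Ikzf2* separate because they were selected to.

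Neighbors on the chromosome varied. Within 100 kb of a selected gene, 25 other genes were tested, around 10 of the 17. Of these, 6 (24.0%) were called lower, beside 9.83% of all genes, and 4 (16.0%) higher, beside 12.1%. Their median log2 fold change was -0.31, and that of all genes tested was 0.01. Those called lower lay near *Tceal3*, *Hook1*, *Gml2* and *Ripply3*. Among them, *Tceal1* and *Gml* were also counted as relatives above, and *Gml* shares sequence with *Gml2*. Near *Tceal3*, *Tceal1* and *Morf4l2*, a chromatin factor gene, were both called lower. *Morf4l2* averaged 513 CPM in control and 268 CPM in Kit-lo (log2 fold change -0.99, SE 0.10, edgeR adjusted p = 5e-05). Near *Ripply3*, *Ttc3* fell from 96.2 to 43.8 CPM (-1.18, SE 0.14, edgeR adjusted p = 0.00017). The sole tested neighbor of *Hook1*, *Fggy*, averaged 3.08 and 0.896 CPM, with an edgeR adjusted p of 0.014 that became 0.077 without control replicate 3. On the other hand, *Dstyk* near *Tmem81* rose from 13.4 to 34.2 CPM (1.31, SE 0.20, edgeR adjusted p = 0.00084) and *Pde12* near *Dnah12* from 28.9 to 52.7 CPM (0.82, SE 0.11, edgeR adjusted p = 0.00042). *Rbbp5*, 571 bases from *Tmem81*, averaged 140 and 143 CPM and was not called.

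Of the 17 genes, 3 were on the gene lists drawn up for this comparison, and 14 were on none. *Tceal3* belongs to a list of *Tceal*, *Bex* and *Armcx* genes, most of them grouped on the X chromosome, of which 11 were tested, 6 called lower and 1 higher, with a median log2 fold change of -0.72. Besides *Tceal3* and *Tceal1* the genes called lower were *Armcx1*, *Armcx2*, *Armcx3* and *Armcx6*, which encode armadillo repeat proteins. *Armcx2* went from 5.81, 7.23 and 4.9 CPM to 0.535, 0.5 and 1.04 CPM, just outside the selection, whereas *Armcx3* went from 38.3, 41.9 and 43.2 CPM to 25.2, 26.3 and 26.3 CPM. *Ikzf2* belongs to a list of early progenitor genes with 16 tested, 6 called lower and 1 higher, and a median of -0.43. *Amigo2* belongs to a list of cell adhesion genes with 20 tested, 4 lower and 3 higher, and a median of 0.06. Over all genes tested, 9.83% were called lower and 12.1% higher, and the median was 0.01. Each of the list counts includes the selected gene, which was lower by the selection.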

How the data were processed

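RNA-seq libraries of control CFU-E (n = 3) and of libraries labelled as Kit-low *Mettl3* knockout CFU-E (n = 3), and m6A IP (n = 2) and input (n = 2) libraries of control CFU-E, were used. The authors filtered reads with fastp 0.23.4, quantified transcripts with Kallisto 0.48.0 on the mouse reference (the processing notes name mm10 and GRCm39) and summed them to genes with tximport. The authors deposited estimated counts per gene as whole numbers, so reads shared by similar transcripts were already divided among them. RNA-seq libraries were made from oligo-dT primed full-length cDNA. The m6A libraries carried molecular identifiers, and their use in counting is not given in the sources used here, nor is strand. Totals were 17429262 to 21329242 counts for RNA-seq and 19421059 to 37142742 for m6A.

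CPM were computed by library total. A selected gene and its values are not reported here, although the counts over all 17 genes include it. The members and gene lists were chosen with earlier results of these data known. Differences were fitted over whole tables in edgeR 4.0.16 (R 4.3.3), with filterByExpr, TMM factors and the quasi-likelihood test, and p-values were adjusted over all genes tested. Standard errors of edgeR fits were derived from the test, as the absolute log2 fold change divided by the square root of its F statistic. DESeq2 1.42.0 was an alternative. The biological coefficient of variation was 19.1% in RNA-seq and 21.9% in m6A. The fits were first tested on simulated data. Named members were the 12 with the highest control mean, those at 0 counts in Kit-lo, those called in IP, those on 1 of 22 gene lists and the 3 nearest to each limit on either side. *Ripply3*, the named relatives and the neighbors were added after their values were seen. Exons, coordinates and shared 31-base words came from GENCODE vM21 (GRCm38), promoters from RefSeq. A ratio of pooled counts has an exact 95% interval from the binomial distribution, and a floor is 3 counts per library. Replicate pairs within each group differed by more than counting error (chi-square per degree of freedom 8.44 to 61.4), so all were kept as separate libraries. Alternatives were other scalings, filters, thresholds, a replicate block and leaving out each library.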

Additional observations from a re-analysis of the deposited data

How the results depend on the processing

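The selection depends on its limits. It gave 17 genes with CPM by TMM effective library size, the same genes. It gave 7 genes when Kit-lo had to stay under 0.5 CPM, 5 when control had to reach 5 CPM and 41 when group means had to pass, and 10 of the 17 were also at 1 CPM or more in both input libraries, an alternative added after seeing the data. Leaving out 1 library at a time removes a condition, so all 17 genes stay by the rule and genes can only be added. The number was then 19 to 24. The number of members at 3 CPM or more in both inputs was 6, also when either input was left out, and 10 at 1 CPM.

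The number of members called lower in IP was 1 under all scalings and filters, 0 to 1 when single libraries were left out (0 without input replicate 1), and 2 with a replicate block, where *Parm1* (-0.72, edgeR adjusted p = 0.048) joined *Fam174b* and 1755 of all 11447 genes tested (15.3%) were called lower. It is not established that replicate numbers pair the libraries. In RNA-seq the same-numbered deviations correlated at 0.0344, -0.017 and -0.0719, and in m6A, with 2 pairs, at 0.205. No member was called higher in IP under any alternative. The median log2 fold change of the members ran from -0.35 to -0.05 when single libraries were left out and was 0.09 with no filter on low counts, where 17 were tested.

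Signs turned among members that did not pass when 1 library was left out. The log2 fold change of IP over input ran from -0.25 to 0.42 for *Hook1*, -0.22 to 0.47 for *Gml2*, -0.32 to 0.59 for *Hk2*, -0.76 to 0.78 for *Atp6v0a4*, -0.04 to 0.44 for *Dnah12* and -1.1 to 0.88 for *Gjb2*. The cause was not tested.

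In RNA-seq, 1178 genes were lower, 979 to 1247 with single libraries left out, 1125 with the replicate block and 2024 with no fold threshold. List genes called numbered 98, and 86 to 108 with single libraries left out. The log2 fold change of *Mettl3* was -0.07, and -0.12 to 0.0 with single libraries left out.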
